A study of Arabidopsis thaliana with 12 samples.

Results

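The EPF and EPFL genes of Arabidopsis thaliana encode small secreted peptides rich in cysteine, and 9 of them, EPF1, EPF2, EPFL1 to EPFL6 and EPFL9, were read by locus identifier from the 26702 genes of the deposited table. All 9 were listed, and 8 of them were tested, having reached 10 normalised reads in 3 or more of the 12 libraries. EPFL4 did not and is given by its values. The seedlings of all 4 groups carried the genotype clv3 epfl1 epfl2 epfl4 epfl6, so 4 of the 9 family genes and the stem cell peptide gene CLV3 were mutated in every library, mock included. The sources used here do not name the alleles, and reads that map to a mutated gene leave it unknown whether a functional mRNA is present. The groups, with 3 biological replicates each, were cycloheximide (CHX) plus EPFL6, CHX, EPFL6, and mock. Each replicate was 10 seedlings at 3 days post germination in 1 ml of liquid medium, and the poly(A) RNA came from tissue labelled as shoot. EPFL6 was given as 8.7 µl of a 10 µM solution, CHX at 10 µM was added 10 minutes before EPFL6 or buffer, and mock seedlings received buffer alone. How long the seedlings then stayed in EPFL6 is not given in the sources used here.

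EPF and EPFL peptides are cut from longer precursors, fold around cysteine bridges and are perceived at the cell surface by the receptor kinases ERECTA (ER), ERL1 and ERL2, with the receptor-like protein TMM as a partner for some of them and with SERK family coreceptors. The signal runs through a MAP kinase cascade to the transcription factors that start and space stomata, and in other tissues it sets stem growth, leaf margin shape and the size of the shoot meristem. CHX stops the elongation step of translation, so the design compares transcripts after EPFL6 with and without new protein synthesis.

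The members fall into types that differ in sequence. The coding ends of 5 of them are shown because they cover the applied ligand, its closest relatives, the most abundant member and the member with the lowest p after EPFL6. Each is the last 180 bases before the stop codon, read 5′ to 3′ on the coding strand from RefSeq TAIR10.1, with the in-frame cysteine codons TGT and TGC in capitals. EPFL6, annotated as CHAL, lies at chr2:12940580-12940759 on the minus strand, EPFL5, annotated as CLL1, at chr3:8073454-8073633 on the minus strand, EPFL4, annotated as CLL2, at chr4:8440511-8440690 on the plus strand, EPFL2 at chr4:17781362-17781541 on the plus strand and EPF2 at chr1:12473449-12473628 on the plus strand.
EPFL6: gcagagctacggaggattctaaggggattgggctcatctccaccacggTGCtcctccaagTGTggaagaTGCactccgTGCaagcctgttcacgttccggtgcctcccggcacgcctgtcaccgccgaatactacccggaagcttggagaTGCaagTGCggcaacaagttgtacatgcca
EPFL5: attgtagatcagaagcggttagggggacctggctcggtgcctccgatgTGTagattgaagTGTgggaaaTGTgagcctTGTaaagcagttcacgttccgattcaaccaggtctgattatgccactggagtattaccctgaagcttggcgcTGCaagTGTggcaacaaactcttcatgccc
EPFL4: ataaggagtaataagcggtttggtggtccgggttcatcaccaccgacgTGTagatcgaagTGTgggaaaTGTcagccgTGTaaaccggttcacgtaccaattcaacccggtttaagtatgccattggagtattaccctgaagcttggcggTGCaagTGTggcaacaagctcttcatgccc
EPFL2: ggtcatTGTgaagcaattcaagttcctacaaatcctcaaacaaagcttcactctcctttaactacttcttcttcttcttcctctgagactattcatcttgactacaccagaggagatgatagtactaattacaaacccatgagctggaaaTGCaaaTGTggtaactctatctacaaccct
EPF2: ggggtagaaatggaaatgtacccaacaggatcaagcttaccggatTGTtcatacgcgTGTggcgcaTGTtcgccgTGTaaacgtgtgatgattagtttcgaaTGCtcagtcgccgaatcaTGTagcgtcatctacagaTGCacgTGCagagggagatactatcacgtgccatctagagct
The 3 genes EPFL4, EPFL5 and EPFL6 show 6 cysteine codons at the same places in these windows. EPF2 has 8 in its last 60 codons, as has EPF1. EPFL2 has 3 there, as has EPFL1, and both carry 6 over a coding sequence of 128 codons. Over these windows with the stop codon added, EPFL4 and EPFL5 were 82.0% identical, EPFL4 and EPFL6 65.2%, EPFL5 and EPFL6 60.7%, EPFL1 and EPFL2 58.9%, and EPF1 and EPF2 56.8%. The longest stretch shared exactly between exons of any pair of members was 25 bases, in EPFL4 and EPFL5, and the next was 18 bases, in EPFL2 and EPFL9. No member overlaps another annotated gene, and the nearest annotated gene lies 150 to 4748 bases away.

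Whole-library values are given first. Recovered depth averaged 84.1 ± 13.6 M reads in CHX plus EPFL6, 93.9 ± 11.2 in CHX, 49.8 ± 9.58 in EPFL6 and 51.4 ± 4.74 in mock (SD, n = 3 each). The shallowest library held 40.2 M reads and the deepest 106.6 M reads. The first principal component held 91.2% of the variance and the second 2.99%. The tissue label was checked against marker lists. Shoot meristem and mesophyll markers were present in every group, and so were root markers. The 6 root markers summed to 1659 to 1976 normalised reads in CHX plus EPFL6 and 1989 to 2212 in CHX. Without CHX they summed to 6610 to 7645 in EPFL6 and 5491 to 7085 in mock. SCR made up most of the sum with CHX, averaging 1151 in CHX plus EPFL6 and 1265 in CHX. PRP3 averaged 39.4 in CHX plus EPFL6, 63.4 in CHX, 2642 in EPFL6 and 2171 in mock. CASP1 averaged 8.31, 21.9, 1459 and 1256 in the same order. In CHX against mock 4 of the 6 were lower and 1 higher, beside 38.3% and 40.9% of all genes. The root marker values without CHX go against a sample free of root tissue there. No marker of any list was at 0 throughout a group. Normalised reads are the deposited values, which are reads divided by 1 size factor per library. These factors did not follow depth: 1 read stood for 0.842 normalised reads in CHX replicate 3 and up to 1.27 in EPFL6 replicate 1. The 100 highest genes of a library held 21.4% to 23.4% of its reads with CHX and 12.9% to 15.7% without.

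Per kb of exon, the only scale on which members were set against each other, EPFL2 stood above every other member in all 4 groups. EPFL2, a ligand known for leaf margin teeth and for its part in restraining the shoot meristem, averaged 15348 ± 1178 normalised reads per kb in CHX plus EPFL6, 18671 ± 2221 in CHX, 3293 ± 944 in EPFL6 and 3327 ± 753 in mock (SD, n = 3 each). Of the summed per-kb level of the 9 genes it made up 96.9 ± 0.73% in CHX plus EPFL6, 97.2 ± 0.41% in CHX, 92.1 ± 3.82% in EPFL6 and 92.7 ± 3.02% in mock. The most abundant transcript of the family in these seedlings is thus one whose gene carries a mutation in all of them. EPFL1, known from the shoot meristem like EPFL2, came next in every group, at 190.2 ± 23.5 per kb in CHX plus EPFL6, 246 ± 76.8 in CHX, 102 ± 16.7 in EPFL6 and 98.5 ± 24.5 in mock.

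Below EPFL1 the order differed between libraries with and without CHX. In CHX plus EPFL6 it ran EPFL5, EPFL3, EPF2, EPFL9, EPF1, EPFL4 and EPFL6, and in CHX it was the same. In EPFL6 it ran EPFL9, EPFL5, EPFL3, EPF1, EPFL6, EPF2 and EPFL4, and in mock EPFL9, EPFL5, EPF2, EPFL3, EPF1, EPFL6 and EPFL4. Several neighbours in these orders had overlapping libraries: EPFL1 and EPFL5, EPFL3 and EPF2, EPF1 and EPFL4, and EPFL4 and EPFL6 in CHX plus EPFL6; EPFL3 through EPF2, EPFL9, EPF1 and EPFL4 to EPFL6 in CHX. Without CHX, EPFL9 overlapped EPFL5 in both groups and also EPFL1 in EPFL6, while EPF2, EPFL3 and EPF1 formed an overlapping chain in mock, as did EPFL3, EPF1, EPFL6, EPF2 and EPFL4 in EPFL6. EPFL6 and EPFL4 overlapped in mock as well.

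**Figure D1:**
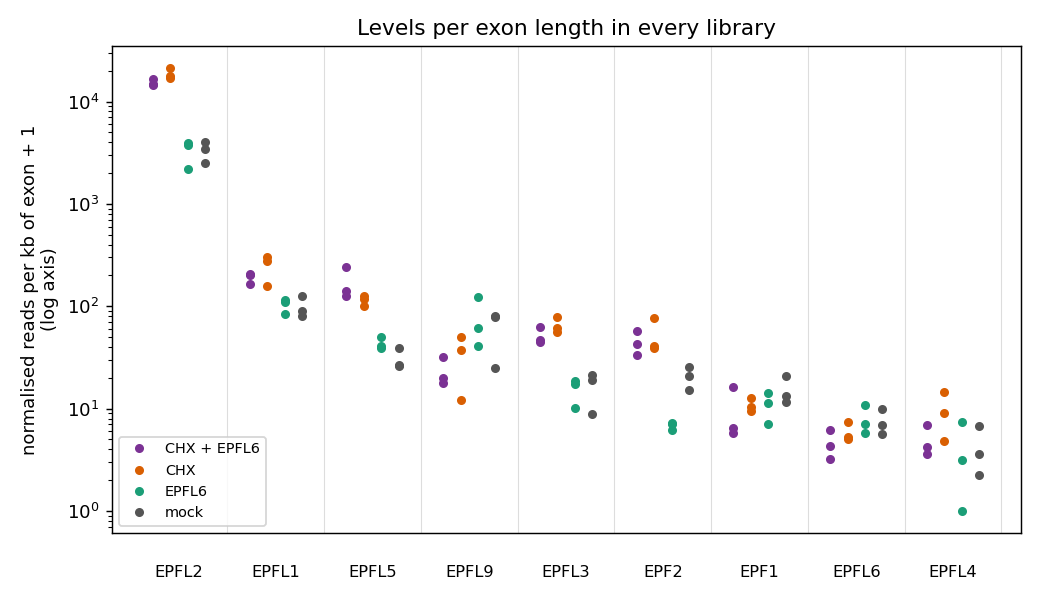
Normalised reads per kb of exon plus 1 (log axis) for the 9 members, ordered by their mean over the 12 libraries, with 1 point per library and a colour per group. EPFL2 lies above all other members in each group, and its 6 libraries with CHX lie above its 6 libraries without.

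EPFL6 added alone changed no family gene past the threshold. Of the 8 members tested, 0 passed in limma (adjusted p under 0.05, Benjamini-Hochberg over 23225 genes, two-sided), where 0.0172% of all genes tested did. edgeR and DESeq2 on the recovered reads also called 0 members, and 1 member had an unadjusted p under 0.05, where 3.05% of all genes did. The members' median log2 fold change was 0.01, beside 0.00 over all genes.

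That 1 member was EPF2 (AT1G34245, chromosome 1, 12472868 to 12473974), the ligand that limits entry of epidermal cells into the stomatal lineage. It had 5.09, 4.34 and 5.15 normalised reads in the EPFL6 libraries, from 4, 5 and 5 reads, against 11.7, 20.4 and 16.3 in mock, from 11, 22 and 16 reads. All 3 EPFL6 libraries lay below all 3 mock libraries, an arrangement that 3.1% of all genes tested showed in this direction. The log2 fold change was −1.52 ± 0.31 (SE; 95% interval −2.21 to −0.82), or 2.86-fold lower on the log2(value + 1) scale, with an unadjusted p of 0.00056 and a limma adjusted p of 0.45. The adjusted p ranged from 0.32 to 1 over 22 alternatives, so EPF2 is reported as not called. The 6 stomatal lineage markers summed to 524 to 629 normalised reads with EPFL6 and 586 to 668 in mock, and none of the 4 of them tested was called. FAMA made up most of that sum, with 426 ± 43.3 with EPFL6 and 435 ± 62.9 in mock. SPCH, at 72.8 ± 12.1 with EPFL6 and 97.9 ± 11.9 in mock, and TMM, at 49.7 ± 8.10 with EPFL6 and 76.6 ± 10.1 in mock, lay lower in every EPFL6 library than in every mock library, as EPF2 did. Among those 6, the transcription factor gene MUTE was too low to be tested, at 1.40 ± 0.607 normalised reads with EPFL6 and 7.38 ± 1.80 in mock (SD, n = 3 each). The libraries overlapped for FAMA, POLAR and BASL. POLAR had 4.12 to 8.90 with EPFL6 and 4.64 to 10.6 in mock. BASL, also too low to be tested, had 1.03 to 5.09 with EPFL6 and 4.08 to 9.53 in mock. Whether these lineage cells have a part in the EPF2 values was not tested. In such bulk samples fewer cells of a type and less RNA per cell cannot be told apart.

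The other ligands of the stomatal epidermis gave no such separation. EPF1 (AT2G20875, chromosome 2, 8982863 to 8983814), which orients spacing divisions next to existing stomatal precursors, had 8.90, 5.21 and 11.3 normalised reads with EPFL6, against 10.6, 9.28 and 17.3 in mock. The groups overlapped, and the log2 fold change of −0.51 ± 0.42 had an adjusted p of 1. EPFL9 (AT4G12970, chromosome 4, 7585869 to 7587099), annotated as STOMAGEN and released by mesophyll to promote stomata, had 59.8, 121 and 39.1 with EPFL6, against 77.3, 77.0 and 23.4 in mock. Its libraries spread widely within each group and overlapped, at a log2 fold change of 0.33 ± 0.62.

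The mutated genes that could be tested gave EPFL6 differences close to 0. EPFL2 (AT4G37810, chromosome 4, 17780729 to 17781813) had 3378, 1978 and 3505 normalised reads with EPFL6, against 3114, 2254 and 3586 in mock, a log2 fold change of −0.03 ± 0.22 with a 95% interval of −0.52 to 0.45. The EPFL6 gene itself (AT2G30370, chromosome 2, 12940349 to 12942829), whose product was the one applied, had 7.63, 9.54 and 15.5 normalised reads with EPFL6, against 7.41, 9.28 and 14.3 in mock. Those groups overlapped throughout, at a log2 fold change of 0.06 ± 0.37 (95% interval −0.76 to 0.88). EPFL1 (AT5G10310, chromosome 5, 3241439 to 3242380) stood at 0.07 ± 0.25. EPFL4 (AT4G14723, chromosome 4, 8439899 to 8440901) gave 0, 2 and 5 reads with EPFL6, where a count of 0 allows up to 3 reads, and 2, 5 and 1 reads in mock, too few to rank the groups.

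Of the members that are intact in this genotype and lie outside the stomatal set, EPFL5 (AT3G22820, chromosome 3, 8073258 to 8074178), a relative of EPFL6 known from stem growth, had 24.2, 25.2 and 30.9 normalised reads with EPFL6, against 24.4, 15.8 and 16.3 in mock. Mock replicate 1 reached into the range of the EPFL6 libraries, and the log2 fold change of 0.50 ± 0.26 (95% interval −0.07 to 1.08) had an unadjusted p of 0.078. EPFL3 (AT3G13898, chromosome 3, 4583315 to 4584487) stood at −0.03 ± 0.35. The 95% intervals of EPFL9 (−1.04 to 1.70), EPF1 (−1.44 to 0.42), EPFL3 (−0.81 to 0.74) and the EPFL6 gene are too wide to say that their levels stayed the same. For the other members, the lack of a call does not show an unchanged level either.

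**Figure D2:**
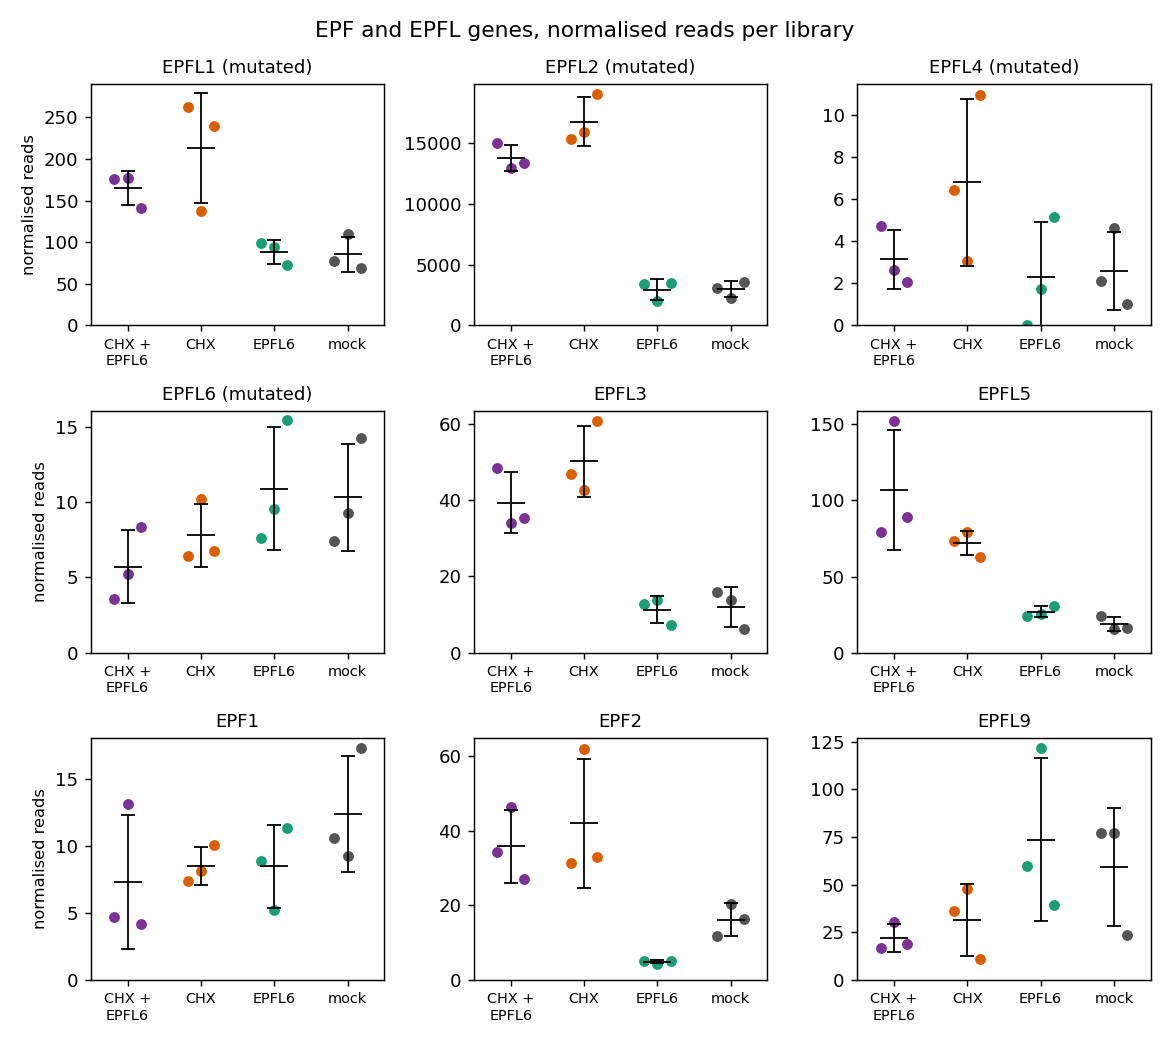
Normalised reads of each member in the 4 groups, 1 point per library in replicate order, with bars for the mean and SD of 3 libraries on an axis from 0 (the lower bar of EPFL4 with EPFL6 is clipped there). EPFL2, EPFL3, EPFL5, EPF2 and EPFL1 lie higher in both groups with CHX, whereas EPFL9 and the EPFL6 gene do not.

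CHX alone raised 5 of the 8 members and lowered 0, and 3 did not pass. In this comparison 79.2% of all genes passed limma, 40.9% higher and 38.3% lower, and the share of members called was not above that. The members' median log2 fold change was 1.29, beside 0.02 over all genes. This split depends on the scaling. With library size alone the median of all genes moved to −0.74, and 3 members were then called higher (EPFL2, EPFL3 and EPFL5) and 3 lower (EPF1, the EPFL6 gene and EPFL9). edgeR with TMM and DESeq2 each gave 5 higher and 0 lower.

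EPFL2 had 15311, 15911 and 19022 normalised reads with CHX, against 3114, 2254 and 3586 in mock. Every CHX library lay above every mock library, as for 41.5% of all genes, and the log2 fold change was 2.51 ± 0.22 (limma adjusted p = 9.9e-07), or 5.69-fold on the log2(value + 1) scale. It passed in 23 of 23 alternatives, at log2 fold changes from 1.76 to 2.65. EPFL1, the other abundant mutated member, had 262, 137 and 240.0 normalised reads with CHX, against 77.3, 109 and 69.3 in mock, and rose by 1.28 ± 0.25 on the log2 scale (adjusted p = 7e-04). Its groups did not overlap, though CHX replicate 2 lay nearer to mock than to the other CHX libraries. With library size alone EPFL1 was at 0.54 (adjusted p = 0.067), so its call depends on the scaling.

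The remaining mutated members did not pass. The EPFL6 gene had 6.44, 10.2 and 6.74 normalised reads with CHX, against 7.41, 9.28 and 14.3 in mock, and the groups overlapped at a log2 fold change of −0.35 ± 0.37 (adjusted p = 0.41). EPFL4 had 7, 3 and 13 reads with CHX, or 6.44, 3.05 and 10.9 normalised, against 2.12, 4.64 and 1.02 normalised in mock. When genes of any level were fitted it stood at 1.11 ± 0.65 (adjusted p = 0.14).

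The intact members EPFL3 and EPFL5 rose with CHX by amounts between those of EPFL1 and EPFL2. EPFL3 had 46.9, 42.7 and 60.6 normalised reads with CHX, against 15.9, 13.9 and 6.11 in mock, at a log2 fold change of 2.06 ± 0.35 (adjusted p = 0.00023). EPFL5 had 73.6, 79.4 and 63.2 with CHX, against 24.4, 15.8 and 16.3 in mock, at 1.90 ± 0.26 (adjusted p = 3.8e-05). Neither gene had overlapping groups, as for 41.5% of all genes in this direction. Both passed in every alternative in which they were tested, 22 for EPFL3 and 23 for EPFL5.

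Of the 3 stomatal ligands, EPF2 was called higher, and EPF1 and EPFL9 did not pass. EPF2 had 31.3, 62.1 and 32.8 normalised reads with CHX, against 11.7, 20.4 and 16.3 in mock, and rose by 1.29 ± 0.31 on the log2 scale (adjusted p = 0.0028), and it did not pass with library size alone (0.57 there, adjusted p = 0.11). EPF1 had 7.36, 8.14 and 10.1 with CHX, against 10.6, 9.28 and 17.3 in mock, and overlapped (−0.45 ± 0.42, adjusted p = 0.34). EPFL9 had 35.9, 47.8 and 10.9 with CHX, against 77.3, 77.0 and 23.4 in mock. Its CHX libraries reached above mock replicate 3, and the log2 fold change of −0.93 ± 0.62 did not pass (adjusted p = 0.19). EPFL9 passed in 3 of 23 alternatives, among them the fit without mock replicate 3 (−1.49, adjusted p = 0.043) and the replicate block. Of the stomatal lineage markers, summing to 570 to 713 normalised reads with CHX and 586 to 668 in mock, 4 of 6 were tested, with 1 higher (POLAR, a polarity factor gene) and 1 lower (SPCH, the factor that starts the lineage). The 3 epidermis markers summed to 2635 to 3579 with CHX and 7498 to 8634 in mock, and 3 of 3 were lower. The 3 guard cell markers summed to 1498 to 1765 with CHX and 1338 to 1373 in mock, and 2 of 3 were higher. Over all genes 38.3% were lower and 40.9% higher in this comparison. The part of these 3 marker lists in the EPF1 and EPF2 values was not tested.

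The same contrast in EPFL6-treated seedlings, CHX plus EPFL6 against EPFL6, uses the other 6 libraries. Here 5 members were higher and 1 lower, where 77.9% of all genes passed, 40.2% higher and 37.7% lower, and the members' median log2 fold change was 1.32 beside 0.03 over all genes. With library size alone, which moved the median of all genes to −0.71, 4 were higher and 2 lower. EPF2 rested on 4 to 5 reads per EPFL6 library. It had 34.3, 46.3 and 27.0 normalised reads in CHX plus EPFL6, against 5.09, 4.34 and 5.15 in EPFL6, a difference of 2.62 ± 0.31 on the log2 scale (limma adjusted p = 1.4e-05) that passed in 22 of 22 alternatives and was 1.75 with a pseudocount of 8. EPFL2, at 14966, 12972 and 13362 in CHX plus EPFL6, against 3378, 1978 and 3505 in EPFL6, stood at 2.26 ± 0.22 (adjusted p = 2.4e-06). In neither gene did the groups overlap, and 41.8% of all genes were separated in that direction.

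EPFL5 and EPFL3 followed in size. EPFL5 had 79.1, 152 and 89.4 normalised reads in CHX plus EPFL6, against 24.2, 25.2 and 30.9 in EPFL6, at a log2 fold change of 1.91 ± 0.26 (adjusted p = 3.8e-05), and EPFL3 had 48.4, 34.1 and 35.3 in CHX plus EPFL6, against 12.7, 13.9 and 7.21 in EPFL6, at 1.74 ± 0.35 (adjusted p = 8e-04). Both were separated in every library, as 41.8% of all genes were in that direction. EPFL1 had 176, 177.4 and 141 in CHX plus EPFL6, against 99.2, 94.6 and 72.1 in EPFL6. Its groups did not overlap either, and the difference of 0.89 ± 0.25 (adjusted p = 0.0075) did not pass with library size alone (0.17, adjusted p = 0.55).

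EPFL9 was the 1 member called lower. It had 16.5, 30.6 and 18.7 normalised reads in CHX plus EPFL6, against 59.8, 121 and 39.1 in EPFL6, and the groups did not overlap, as for 38.8% of all genes in that direction. The log2 fold change was −1.59 ± 0.62 (adjusted p = 0.035), and the call was lost without EPFL6 replicate 1 (adjusted p = 0.0614), EPFL6 replicate 2 (0.137), CHX plus EPFL6 replicate 1 (0.0966) or CHX plus EPFL6 replicate 3 (0.0837). The 4 mesophyll markers, whose sum was mostly RBCS1A, had a lower mean sum in both groups with CHX, as EPFL9 had. They summed to 283586 to 443411 normalised reads in CHX plus EPFL6, 254180 to 357471 in CHX, 399287 to 746358 in EPFL6 and 391116 to 792778 in mock. In CHX against mock and in CHX plus EPFL6 against EPFL6, 2 of 4 were lower, beside 38.3% and 37.7% of all genes. With EPFL6 the mean sum and EPFL9 differed in opposite directions, with overlapping libraries. Under CHX the sum averaged 367416 with EPFL6 and 305416 without, and EPFL9 21.9 and 31.5. Without CHX the sum averaged 562980 with EPFL6 and 578808 in mock, and EPFL9 73.5 and 59.3. In EPFL6 and in mock, replicate 3 was lowest both for EPFL9 and for this sum, and in CHX plus EPFL6 replicate 1 was. In CHX, EPFL9 was lowest in replicate 3 and the sum in replicate 1. The part of mesophyll tissue in the EPFL9 values was not tested.

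**Figure D3:**
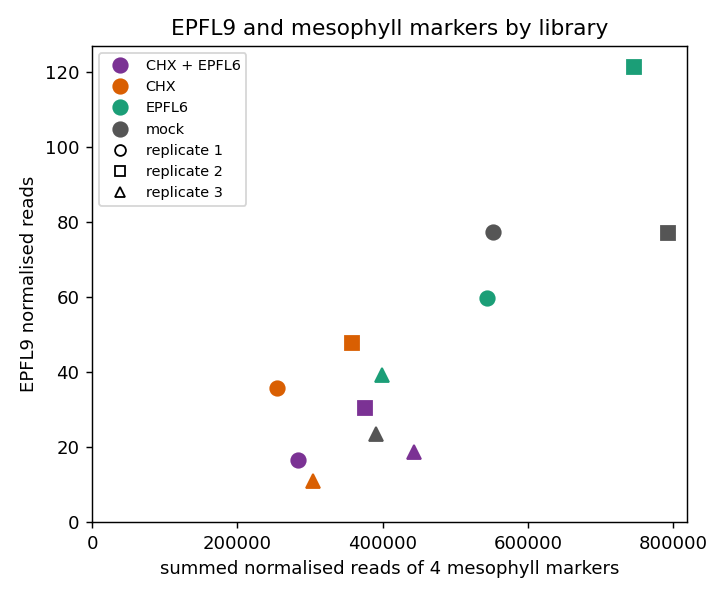
EPFL9 normalised reads (vertical axis) against the summed normalised reads of 4 mesophyll markers (horizontal axis), 1 symbol per library, with colour for the group and shape for the replicate. The libraries with CHX sit at the low end of both axes together with replicate 3 of EPFL6 and of mock.

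The last 2 members did not pass here. The EPFL6 gene had 3.54, 5.24 and 8.32 normalised reads in CHX plus EPFL6, from 3, 6 and 8 reads, against 7.63, 9.54 and 15.5 in EPFL6, and its groups overlapped (log2 fold change −0.83 ± 0.37, adjusted p = 0.059; past the threshold in 5 of 18 alternatives). EPF1 had 4.72, 13.1 and 4.16 in CHX plus EPFL6, against 8.90, 5.21 and 11.3 in EPFL6, and overlapped as well (−0.29 ± 0.42, adjusted p = 0.55).

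EPFL6 given under CHX, set against CHX alone, changed no family gene past the threshold, while 13.5% of all genes tested passed. Of the 8 members, 0 were called by limma, 0 by edgeR and 0 by DESeq2, and 0 had an unadjusted p under 0.05, where 31.4% of all genes did. The members' median log2 fold change was −0.32, beside 0.00 over all genes, and 7 of the 8 estimates were below 0. EPFL2 came nearest to a separation: its 14966, 12972 and 13362 normalised reads in CHX plus EPFL6 lay below its 15311, 15911 and 19022 in CHX, an arrangement that 17.7% of all genes showed in this direction. The difference was not called, at −0.28 ± 0.22 (95% interval −0.76 to 0.21, adjusted p = 0.42). That interval rests on this fit and its scaling, and it was not taken to exclude larger changes.

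EPFL5 alone leaned the other way, with 79.1, 152 and 89.4 normalised reads in CHX plus EPFL6, against 73.6, 79.4 and 63.2 in CHX. Only replicate 2 of CHX plus EPFL6 stood well above the CHX libraries, and the log2 fold change was 0.51 ± 0.26 (95% interval −0.06 to 1.08, adjusted p = 0.21). EPF2 had 34.3, 46.3 and 27.0 in CHX plus EPFL6, against 31.3, 62.1 and 32.8 in CHX, and the groups overlapped at −0.19 ± 0.31 (adjusted p = 0.72). EPFL1, EPFL3, EPF1, EPFL9 and the EPFL6 gene lay between −0.32 and −0.43 with overlapping libraries and adjusted p from 0.42 to 0.76. EPFL4 had 4, 3 and 2 reads in CHX plus EPFL6 and 7, 3 and 13 reads in CHX.

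**Figure D4:**
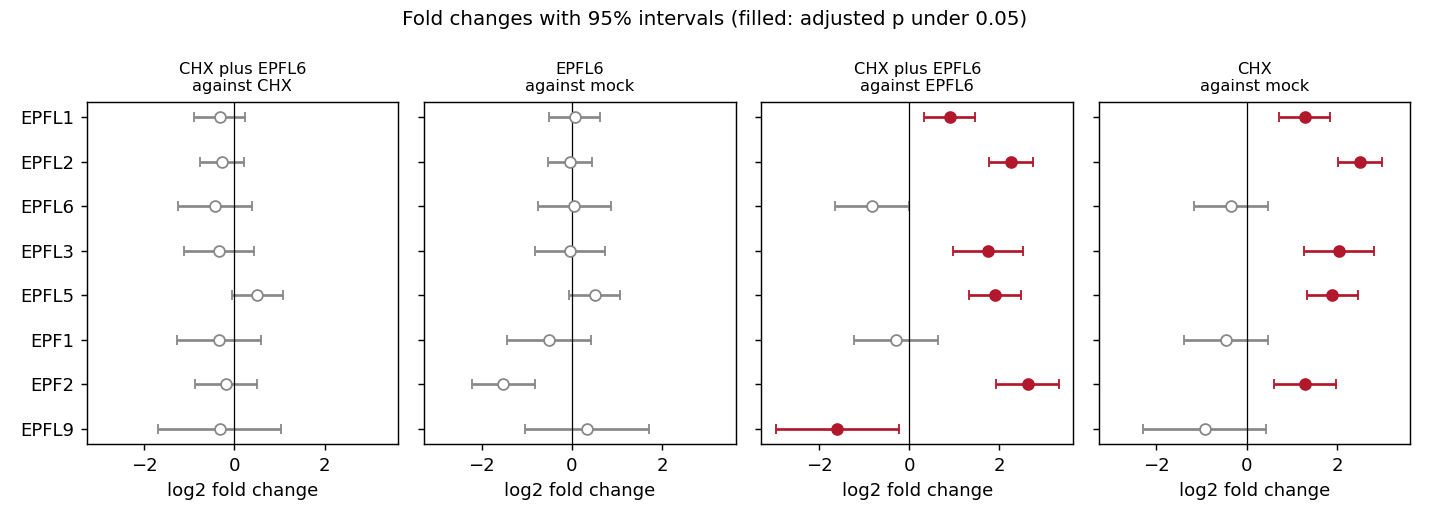
Log2 fold changes (horizontal axis) with 95% intervals for the 8 members tested, in the 4 pairwise comparisons, with filled symbols for limma adjusted p under 0.05. Filled symbols appear only in the comparisons of CHX plus EPFL6 against EPFL6 and of CHX against mock.

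Whether the EPFL6 response differed with and without CHX was tested directly as an interaction, the change with EPFL6 under CHX minus the change with EPFL6 alone. Of the 8 members 0 passed in limma, edgeR or DESeq2, where 1.5% of all genes passed in limma, and 1 had an unadjusted p under 0.05, where 19.2% of all genes did. That member was EPF2, at 1.33 ± 0.44 on the log2 scale (unadjusted p = 0.012, adjusted p = 0.14, and 0.11 to 0.29 over 21 alternatives). Its EPFL6 difference was −0.19 under CHX and −1.52 without CHX, and the test over all genes did not separate these values. The other 7 members had interactions between −0.66 and 0.17, with adjusted p from 0.58 to 1.0.

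Upstream sequence was compared for the 5 members raised by CHX. The W-box core TTGAC, the letters bound by WRKY factors, was searched on both strands from 250 bases before to 50 bases after each annotated start, and 50.5% of 27443 promoter windows of that length held it. Of the 5, EPFL1 and EPFL2 each held 2 matches and EPFL3, EPFL5 and EPF2 held 0. Of the other members, EPFL4 and EPFL9 held 1 each and EPF1 and EPFL6 held 0. The G-box CACGTG was in none of the 9 windows and in 7.68% of all windows. The auxin response element letters TGTCTC occurred once in each of EPFL1, EPFL3, EPFL5 and EPFL9, against 14.2% of all windows. The 2 sequences shown hold matches of TTGAC only, and the TGTCTC match of EPFL1 lies after its start, outside the stretch shown. The 250 upstream bases of EPFL1 (chr5:3242381-3242630, minus strand) and EPFL2 (chr4:17780479-17780728, plus strand) are shown, from RefSeq TAIR10.1, since these are the abundant pair; capitals mark the TTGAC core or its reverse complement.
EPFL1: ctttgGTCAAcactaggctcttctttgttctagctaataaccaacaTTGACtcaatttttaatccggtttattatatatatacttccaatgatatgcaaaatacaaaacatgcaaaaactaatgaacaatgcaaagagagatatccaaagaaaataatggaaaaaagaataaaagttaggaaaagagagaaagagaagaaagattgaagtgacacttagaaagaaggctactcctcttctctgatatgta
EPFL2: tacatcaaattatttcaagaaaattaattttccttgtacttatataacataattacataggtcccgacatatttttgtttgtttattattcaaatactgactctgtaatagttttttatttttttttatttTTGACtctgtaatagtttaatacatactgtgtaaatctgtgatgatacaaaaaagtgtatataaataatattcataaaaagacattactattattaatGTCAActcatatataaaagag
A match here is a description of letters and not of a bound site.

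The other genes of the pathway were read from a list of 24, of which 22 were tested (MUTE and BASL were too low). With EPFL6 alone 0 of the 22 passed limma, beside 0.0172% of all genes, and 3 had an unadjusted p under 0.05, beside 3.05%. The list's median log2 fold change was −0.01 beside 0.00 over all genes. DESeq2 called 2 of the 22, and 31 of all 23225 genes. ERL1 stood at −0.78 ± 0.16 and ERL2 at −0.57 ± 0.12 (adjusted p = 0.45 for both), and TMM at −0.62 ± 0.22 (adjusted p = 1). These 3 receptor genes had lower values in every EPFL6 library than in every mock library, as 3.1% of all genes had. The groups overlapped for the receptor gene ER, at −0.18 ± 0.14. The 4 shoot meristem markers summed to 2366 to 3229 normalised reads with EPFL6 and 3204 to 3243 in mock, and 1 of 4 was called lower. Among them WUS had 123 ± 2.27 with EPFL6 and 379 ± 60.6 in mock, and CLV3, itself mutated here, had 311 ± 46.5 with EPFL6 and 683 ± 94.6 in mock (SD, n = 3 each). STM had 961 ± 139 with EPFL6 and 1010 ± 40.6 in mock. KNAT1 had the higher mean with EPFL6, at 1367 ± 255 against 1153 ± 91.1 in mock. The part of these markers in the receptor values was not tested.

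Under CHX, where 0 ligand genes were called, 5 pathway genes were lower with EPFL6 and 1 was higher, beside 7.63% and 5.89% of all genes, and the list's median was −0.23. All 4 receptor genes were among the 5, of which ERL1 and ERL2 kept their calls in every alternative. ERL2 had 100.5 ± 12.1 normalised reads in CHX plus EPFL6 and 454 ± 18.3 in CHX (SD, n = 3 each), a difference of −2.17 ± 0.12 on the log2 scale (adjusted p = 4.7e-06). ERL1 had 146 ± 4.98 in CHX plus EPFL6 and 350.2 ± 67.5 in CHX (−1.24 ± 0.16, adjusted p = 0.0019). TMM stood at −0.95 ± 0.22 (adjusted p = 0.022) and passed in 17 of 23 alternatives, and ER at −0.65 ± 0.14 (adjusted p = 0.018) in 20 of 23, losing its call with the 2 groups fitted alone (adjusted p = 0.060) and without CHX plus EPFL6 replicate 1 (0.051) or 2 (0.062). The others were CRSP, a protease gene whose product cuts the EPF2 precursor (−0.79 ± 0.22, adjusted p = 0.040, past the threshold in 14 of 23 alternatives), and BSK1, a receptor-like cytoplasmic kinase gene (0.24 ± 0.06, adjusted p = 0.031). ERL2 was also the 1 pathway gene with an interaction, at −1.61 ± 0.17 (adjusted p = 0.0014), past the threshold in 22 of 22 alternatives. Shoot meristem markers moved in the same comparison: the 4 genes summed to 1202 to 1319 normalised reads in CHX plus EPFL6 and 6275 to 6914 in CHX, and 4 of 4 were lower. CLV3 made up most of the sum, with 853 ± 13.0 in CHX plus EPFL6 and 4708 ± 194 in CHX. In the same order WUS had 95.7 ± 34.0 and 1019 ± 126, STM 103 ± 36.2 and 521 ± 70.6, and KNAT1 192 ± 31.0 and 336 ± 14.1. In CHX against mock WUS and CLV3 were higher and STM and KNAT1 lower, beside 40.9% and 38.3% of all genes. The part of these 4 markers in the receptor values was not tested.

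CHX against mock gave 8 higher and 8 lower of the 22 pathway genes, beside 40.9% and 38.3% of all genes, with a median of 0.03 beside 0.02 over all genes. The share of the list called was not above that background. MPK3, a MAP kinase gene, was higher by 4.74 ± 0.12 on the log2 scale, the coreceptor gene SERK4 by 4.11 ± 0.18 and the MAP kinase kinase gene MKK4 by 2.50 ± 0.18, while CRSP was lower, at −2.56 ± 0.22. By role, 3 of 4 coreceptors and 4 of 5 kinases of the cascade were higher, 1 kinase (YDA, −0.33 ± 0.07, adjusted p = 0.0012) was lower, and 2 of 4 receptors and 3 of the 4 tested stomatal transcription factors were lower. These role counts are too small to set against the shares over all genes. In EPFL6-treated seedlings CHX gave 9 higher and 10 lower of the 22, beside 40.2% and 37.7% of all genes, with a median of −0.20 beside 0.03 over all genes. The largest there were MPK3 (4.57 ± 0.12), SERK4 (3.52 ± 0.18), CRSP (−3.32 ± 0.22) and ERL2 (−2.99 ± 0.12).

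The genes whose pattern over the 12 libraries was most like that of a member were ranked by the root mean square difference of gene-centred log2(value + 1), among 20074 genes with a mean of at least 50. EPFL2 had the closest neighbours, AT5G18400 at 0.138, AT3G19660 at 0.143 and AT1G15430 at 0.160, where the median gene lay at 1.30. For EPFL5 they were AT3G24780 at 0.220, MEK1 at 0.230 and WRKY7 at 0.238 (median gene 1.12), and for EPFL1 PDX1L4 at 0.227, AT2G17830 at 0.237 and AT5G06980 at 0.243 (median gene 0.781). EPFL3 was nearest to AT1G19420 at 0.264, AT1G24148 at 0.269 and AT2G14080 at 0.270 (median gene 1.12). EPF2 and EPFL9 had no neighbour as close: EPF2 lay 0.479 from OZF1, 0.524 from ARI6 and 0.525 from NADP-ME1 (median gene 1.25), and EPFL9 0.479 from AT1G72030, 0.481 from AT5G06790 and 0.482 from PnsB3 (median gene 1.00). EPF1 was nearest to AT3G02832 at 0.347, AT3G19390 at 0.351 and AT5G41400 at 0.369 (median gene 0.652), and the EPFL6 gene to BARD1 at 0.272, ABCG15 at 0.275 and GSTU20 at 0.275 (median gene 0.611). All these distances share the 12 libraries and their CHX contrast, and they describe likeness only. Counting error and a member's spread within groups enter each distance. EPF2 rested on 4 to 61 reads per library and EPFL9 on 13 to 140, against 2280 to 22587 for EPFL2. A larger distance therefore does not show a more distinct pattern.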

How the data were processed

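Poly(A) RNA was sequenced from 12 libraries in 4 groups of 3. Per the submitters' processing notes, the authors worked on the TAIR10 genome with STAR 2.7.6a, DESeq2 1.26.0 and featureCounts 2.0.0; counting mode and strand setting are not given in the sources used here. The deposited values are a scaled signal per gene (reads over a size factor, 1 per library); multiplied back, 100% of them lay within 1e-06 of whole reads. The 23225 genes that reached 10 in 3 or more libraries were fitted as log2(value + 1) with limma 3.58.1 in R 4.3.3, all groups in a single fit with trend and robust moderation, two-sided, Benjamini-Hochberg, threshold 0.05. The plan named this test for scaled values. The procedure was tested on simulated data. The 23 alternatives included edgeR 4.0.16 and DESeq2 1.42.0 on the recovered reads, other scalings, pseudocounts and filters, the replicate block and each library left out. Named genes are the members, up to 4 pathway genes per comparison with the largest change, other pathway genes called, and the 3 nearest in pattern to each member; ERL1, ERL2 and TMM with EPFL6 alone, MUTE, YDA, and the further receptor, protease and marker genes given with values were chosen after their values were seen. Locus identifiers matched RefSeq TAIR10.1 for 26514 of 26702 genes; sequences and motif searches used it with Biopython 1.88. The members and lists were chosen with earlier results of these data known. Counting limits cover counting error only.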

Additional observations from a re-analysis of the deposited data

Results flagged for a closer look

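ERL2, a receptor gene of the pathway list, answered EPFL6 differently with and without CHX by a test of the difference itself. Its log2 change with EPFL6 was −2.17 ± 0.12 under CHX and −0.57 ± 0.12 without CHX, and the interaction was −1.61 ± 0.17 (SE; limma adjusted p = 0.0014). All 3 libraries of CHX plus EPFL6 lay below all 3 of CHX, as for 17.7% of all genes, and all 3 of EPFL6 below all 3 of mock, as for 3.1%. The 4 shoot meristem markers all had an interaction of the same sign past the threshold, where 1.5% of all genes had one in either direction. Their part in the ERL2 value was not tested. No ligand gene met this criterion. Libraries were not screened for outliers, since each group held 3.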

How the results depend on the processing

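Over the alternatives, the count of members called stayed at 0 for EPFL6 against mock, for the interaction and for CHX plus EPFL6 against CHX, at 3 to 6 for CHX against mock and at 4 to 7 for CHX plus EPFL6 against EPFL6. A filter of 50 gave 3 for CHX against mock, because 4 members were then tested. The 12 fits that leave out 1 library turned the sign of some differences that were not called: for EPFL6 against mock EPFL1 (−0.0673 to 0.26), EPFL2 (−0.22 to 0.23), EPFL3 (−0.42 to 0.23), the EPFL6 gene (−0.13 to 0.26) and EPFL9 (−0.23 to 0.70); for CHX plus EPFL6 against CHX EPF2 (−0.38 to 0.12) and EPFL9 (−0.94 to 0.0796); and for the interaction EPF1 (−0.29 to 0.43), EPFL3 (−0.58 to 0.0731) and EPFL5 (−0.28 to 0.19, and −0.0039 with a pseudocount of 0.5). The replicate numbers matched the libraries in part. Correlations of same-numbered libraries ran from −0.18 to 0.42, and in EPFL6 against mock they were −0.12, 0.28 and 0.42. Of 6 libraries, 4 were nearest to their own number in EPFL6 against mock and 4 in CHX against mock. In each comparison of CHX plus EPFL6 it was 2 of 6. With the replicate block the members called were 6 for CHX against mock, adding EPFL9 (adjusted p = 0.0328), and 7 for CHX plus EPFL6 against EPFL6, adding the EPFL6 gene (adjusted p = 0.0294), and the block changed no other call of a member. Over all genes, EPFL6 against mock gave 4 calls, against 31 with DESeq2, 2 with edgeR, 1 with the block and 0 with the 2 groups fitted alone; the interaction gave 349, against 1528 with DESeq2, 187 with the block and from 86 (without mock replicate 1) to 954 (without CHX replicate 1) with 1 library left out; and CHX plus EPFL6 against CHX gave 3140, against 4713 with DESeq2, 1528 with the 2 groups fitted alone and from 1018 (without CHX replicate 3) to 3972 (without CHX replicate 1), with 1219, 1403 and 1663 without CHX plus EPFL6 replicate 3, CHX plus EPFL6 replicate 2 and CHX replicate 2. Of the pathway list, CHX plus EPFL6 against CHX gave 6 calls, 2 with the 2 groups fitted alone or without CHX plus EPFL6 replicate 1 or 2, and 3 without CHX replicate 3. The cause of these differences was not tested. Low read numbers limit EPFL4, the EPFL6 gene and EPF1, which rest on few reads per library. The same holds without CHX for EPF2, with 4 to 22 reads per library, and for EPFL3, with 6 to 16.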

Other observations

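Both AT1G71866 and AT1G80133, whose RefSeq products are also named as EPIDERMAL PATTERNING FACTOR-like proteins, were too low to be tested, with at most 6.74 and 6.99 normalised reads in any library. AT1G71866 averaged 0.976 normalised reads in CHX plus EPFL6, 5.78 in CHX, 2.93 in EPFL6 and 4.29 in mock. AT1G80133 averaged 3.46 in CHX plus EPFL6, 1.91 in CHX, 2.38 in EPFL6 and 0.706 in mock.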
